A study of Mus musculus with 2 samples.

Results

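The genes described here are 10 kinases, cyclins and a phosphatase that carry male germ cells through the meiotic divisions: Cdk1, its partner cyclin genes Ccnb1, Ccnb2, Ccna1 and Ccnb3, the phosphatase gene Cdc25c, Plk1, and the Aurora kinase genes Aurka, Aurkb and Aurkc. They were chosen by gene symbol, and all 10 were found among the 53801 genes of the deposited expression table. RNA had been sequenced from spermatocytes, the germ cells in meiosis, sorted from mouse testis. There was 1 library from cells labelled SMC1beta knockout overexpressing SMC1alpha, called the knockout-labelled library below, and 1 library from SMC1beta wild-type cells. SMC1beta is the meiotic SMC1 subunit of cohesin, the ring that holds sister chromatids together, and SMC1alpha is the SMC1 subunit that is not restricted to meiotic cells. The labels name no promoter or cell type for the overexpression, no strain, no age and no number of animals, and the sample titles carry "4N" without explaining it. No knockout without added SMC1alpha was analysed here, so loss of the one subunit and gain of the other cannot be told apart.

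Values are TPM, a length-scaled share of all transcripts, which the authors scaled for gene length, so levels can be compared between genes, and for the library total, so a comparison between libraries depends on that total. Each ratio compares the knockout-labelled library with wild type on a log2 scale after adding 1 TPM to both values, and so understates differences of genes near 1 TPM. With 1 library per genotype there is no measure of the spread between animals and no test, and "higher" and "lower" describe these 2 libraries alone. Read counts are not part of the table, and the depth is therefore unknown. In sorted bulk RNA, fewer cells of a type and less RNA per cell cannot be told apart.

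Entry into the meiotic divisions is driven by CDK1 bound to a B-type cyclin. CDC25 phosphatases switch this complex on by removing inhibitory phosphates that the WEE1 and PKMYT1 kinases had added. PLK1 helps to activate it and acts on the synaptonemal complex, centrosomes and kinetochores. Aurora A works at spindle poles, while Aurora B and its germ-cell relative Aurora C form the enzyme core of the chromosomal passenger complex, which corrects wrong attachments of chromosomes to the spindle. Cyclin A1 is largely restricted to male germ cells, and male mice without it are sterile because spermatocytes do not enter the first division. In the mouse testis, cyclin B3 RNA is known from early prophase, before the divisions.

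The gene named as deleted and the gene named as overexpressed were examined first. Smc1b stood at 62.9 TPM in the knockout-labelled library and 76.1 TPM in wild type, and a gene-level sum cannot show whether a deleted part of it is present. Smc1a stood at 28.8 TPM in the knockout-labelled library and 0.510 TPM in wild type. Whether this Smc1a RNA came from the overexpressed copy or from the normal gene, also in other cell types, was not tested. Spermatocyte genes were abundant in both libraries, with the chromosome axis gene Sycp3 at 603 TPM in the knockout-labelled library and 264 TPM in wild type. Markers of spermatids, Leydig cells and Sertoli cells were also present and differed between the libraries, with values given at the end.

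Of the 10 division genes, 5 were at least 2-fold lower in the knockout-labelled library, 1 was at least 2-fold higher and 4 lay within 2-fold. The 5 were Ccna1, Plk1, Aurkc, Aurkb and Aurka, and the 1 was Ccnb3. The background for these counts is that 16.5% of the 15000 protein-coding genes that reached 1 TPM in either library were lower by 2-fold or more and 18.7% higher by as much, and that the same held for 19.3% and 15.0% of all 23148 genes that reached it. The median log2 ratio of the 10 genes was -1.08, against -0.05 for protein-coding genes and -0.22 for all genes. Their TPM summed to 354 in the knockout-labelled library and 775 in wild type, so the sum in the knockout-labelled library was 45.7% of the wild-type sum. All 10 genes reached 1 TPM in 1 or both libraries, and Ccnb3 met this only through the knockout-labelled library.

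**Figure D1:**
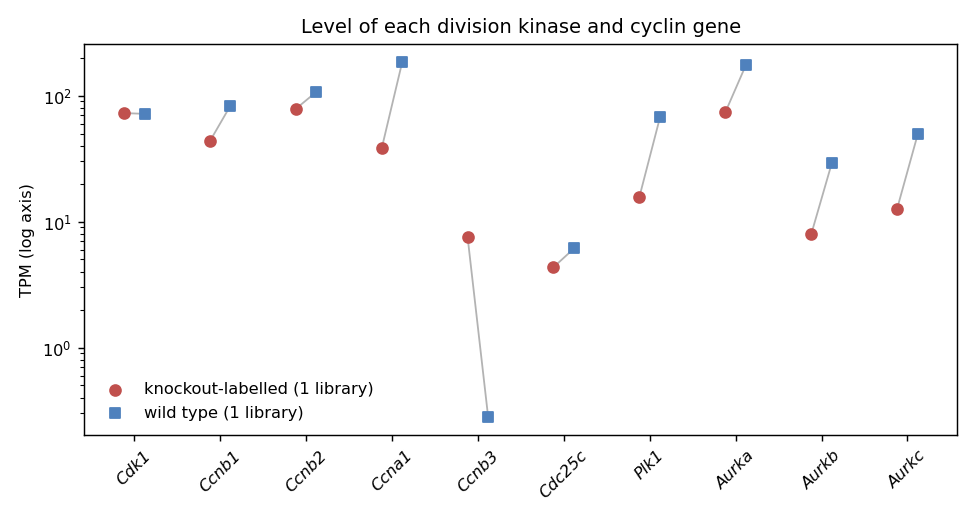
TPM of each of the 10 genes on a log axis in the knockout-labelled library (red circles, 1 library) and in wild type (blue squares, 1 library), with a grey line joining the 2 values of a gene. Cdk1 is level at 72.6 and 71.7 TPM, the Aurora genes, Plk1 and Ccna1 lie lower in the knockout-labelled library, and Ccnb3 is the gene that lies higher there by more than 2-fold.

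The deposited total can move every ratio, because TPM is a share. Rescaling the libraries in 3 other ways moved ratios up: the median of all genes by 0.27 log2 units when a trimmed mean was set to 0 and by 0.39 without mitochondrial genes and the 20 of highest TPM, and the median of protein-coding genes by 0.36 when they alone were kept. The 1 TPM limit was applied again after each rescaling, so these medians cover different numbers of genes. The ratios of the division genes moved up as well. None of the 10 genes changed direction under these 3 rescalings. Because each moved ratios up, only genes lower in the knockout-labelled library could have changed. Pseudocounts of 0.1 or 5 TPM changed sizes alone, since a pseudocount cannot alter a direction. Aurka came within 2-fold under each rescaling, which left 4 genes at least 2-fold lower. The shares of all genes past 2-fold were not counted after rescaling. Counts after rescaling, here and below, therefore have no background share beside them. Comparisons of one member with another within a library do not depend on the total, and several are given for that reason.

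The start regions of 4 of the genes are shown because they span the 3 outcomes: Plk1 and Aurka were lower in the knockout-labelled library, Cdk1 was level, and Ccnb3 was higher. Each line holds the 170 bases before the RefSeq transcription start (GRCm38.p6), written 5′ to 3′ on the gene's own strand. Capitals mark matches, on either strand, to the CCAAT box (CCAAT), the cell cycle element CHR (TTTGAA) and a MYB site (AACNGNC), motifs known from genes of cell division.
Plk1, chr7:122159265-122159434, plus strand: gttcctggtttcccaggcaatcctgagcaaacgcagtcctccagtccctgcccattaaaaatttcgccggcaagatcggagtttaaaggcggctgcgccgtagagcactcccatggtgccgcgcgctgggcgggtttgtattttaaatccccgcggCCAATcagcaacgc
Aurka, chr2:172370571-172370740, minus strand: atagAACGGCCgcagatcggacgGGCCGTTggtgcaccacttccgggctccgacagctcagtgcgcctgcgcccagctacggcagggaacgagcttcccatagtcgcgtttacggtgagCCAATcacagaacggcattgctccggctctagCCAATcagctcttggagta
Cdk1, chr10:69352913-69353082, minus strand: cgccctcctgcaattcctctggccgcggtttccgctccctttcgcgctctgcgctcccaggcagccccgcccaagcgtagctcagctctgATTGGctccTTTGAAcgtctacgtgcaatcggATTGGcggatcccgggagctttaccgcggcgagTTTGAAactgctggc
Ccnb3, chrX:7041620-7041789, minus strand: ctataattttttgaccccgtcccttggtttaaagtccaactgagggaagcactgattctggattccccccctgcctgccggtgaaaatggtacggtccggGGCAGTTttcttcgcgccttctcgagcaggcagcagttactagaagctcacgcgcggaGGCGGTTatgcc
These letters show CCAAT boxes close to the starts of Plk1, Aurka and Cdk1 and none before that of Ccnb3, whose capitals are MYB matches on the opposite strand. The CHR matches of Plk1 and Aurka lie after the start and so outside these lines, and the last 26 bases of the Cdk1 line lie within its gene model in the table.

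Counted over the whole 300-base RefSeq entry (250 bases before the start and 50 after), 7 of the 8 members with an entry held a CCAAT box, Ccnb3 being the exception, against 37.4% of 32851 promoters. The members with no entry are Aurkb and Cdc25c. A CHR element was present in 4 of 8, Plk1, Aurka, Cdk1 and Ccnb2, against 17.9% of promoters. The MYB letters occurred in 5 of 8, namely Aurka, Ccna1, Ccnb1, Ccnb3 and Cdk1, against 32.8%. The half-site of the cAMP response element (TGACG) occurred in Ccnb2 alone, 1 of 8, against 20.8%. In Ccnb1 a MYB match and a CCAAT box share a base. Cdk1 and Aurka held the same 3 motifs, with the CHR match after the start in Aurka and the CHR matches before it in Cdk1. Whether the motifs bear on the ratios was not tested. A match is a run of letters and is no evidence of binding.

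Cdk1, the kinase that triggers division, was level between the libraries. Cdk1 (ENSMUSG00000019942; mm10 chromosome 10, 69335146 to 69352938, minus strand) had 72.6 TPM in the knockout-labelled library and 71.7 TPM in wild type, a log2 ratio of 0.02. Under the 3 rescalings its ratio lay between 0.31 and 0.42. Among the 10 genes it ranked 3 by level in the knockout-labelled library and 5 in wild type, and Ccna1 and Ccnb1, which stood below it in the knockout-labelled library, stood above it in wild type.

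The cyclins that partner CDK1 differed from each other in both size and direction. Ccna1 (ENSMUSG00000027793; chromosome 3, 55045469 to 55055501, minus strand) had 38.0 TPM in the knockout-labelled library and 185.6 TPM in wild type. This is 4.88-fold lower, a log2 ratio of -2.26, and 316 of 15000 protein-coding genes had a lower ratio. After rescaling the log2 ratio lay between -1.97 and -1.86. Ccna1 was the most abundant of the 10 genes in wild type and ranked 5 in the knockout-labelled library. An antisense RNA gene, 4931419H13Rik, overlaps the 5′ end of the Ccna1 locus by 260 bases and stood at 6.33 TPM in the knockout-labelled library and 21.3 TPM in wild type. The library kit kept strand, but whether quantification used it is not given in the sources used here, so reads in the shared 260 bases may count for either gene.

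Ccnb1 and Ccnb2, the general mitotic and meiotic B cyclins, differed less. Ccnb1 (ENSMUSG00000041431; chromosome 13, 100778650 to 100786570, minus strand) had 43.4 TPM in the knockout-labelled library and 83.3 TPM in wild type, just inside the 2-fold limit with a log2 ratio of -0.92. Ccnb2 (ENSMUSG00000032218; chromosome 9, 70407692 to 70421547, minus strand) had 78.4 TPM in the knockout-labelled library and 107.1 TPM in wild type, a log2 ratio of -0.45 that came to between -0.15 and -0.04 after rescaling. It was the most abundant of the 10 genes in the knockout-labelled library and ranked 3 in wild type. A transcribed pseudogene, Ccnb2-ps, stood at 1.98 TPM in the knockout-labelled library and 5.10 TPM in wild type, and reads of such near-identical copies can be divided between them.

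Ccnb3 went the other way. Ccnb3 (ENSMUSG00000051592; chromosome X, 6979652 to 7041619, minus strand) had 7.54 TPM in the knockout-labelled library and 0.279 TPM in wild type, a log2 ratio of 2.74, and 208 of the 15000 protein-coding genes had a higher ratio. The size of this ratio depends on the pseudocount because the wild-type value is low: it was 4.33 with 0.1 TPM and 1.25 with 5 TPM. Ccnb3 is the X-linked member of the 10. Across 620 X-linked protein-coding genes the median log2 ratio was 1.30, 62.7% were at least 2-fold higher in the knockout-labelled library, and 56 had a higher ratio than Ccnb3. Across 14287 autosomal protein-coding genes the median was -0.08, 16.7% were at least 2-fold higher, and 144 had a higher ratio than Ccnb3. Early prophase genes, the stage at which Ccnb3 is known to be expressed, were higher in the same library, with 9 of 10 listed genes at least 2-fold higher. Neither the part of the X-linked group nor that of early prophase cells in the Ccnb3 value was tested.

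The cyclin mixture therefore had a different composition in each library. Ccna1 made up 22.7% of the summed TPM of these 4 cyclin genes in the knockout-labelled library and 49.3% in wild type. Ccnb2 made up 46.8% in the knockout-labelled library and 28.5% in wild type, and Ccnb1 25.9% and 22.1%. Ccnb3 made up 4.51% in the knockout-labelled library and 0.0741% in wild type. For each Ccna1 transcript there were 1.14 Ccnb1 transcripts in the knockout-labelled library and 0.449 in wild type, in units that do not depend on the library total. The sum of the 4 genes was 167 TPM in the knockout-labelled library and 376 TPM in wild type.

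**Figure D2:**
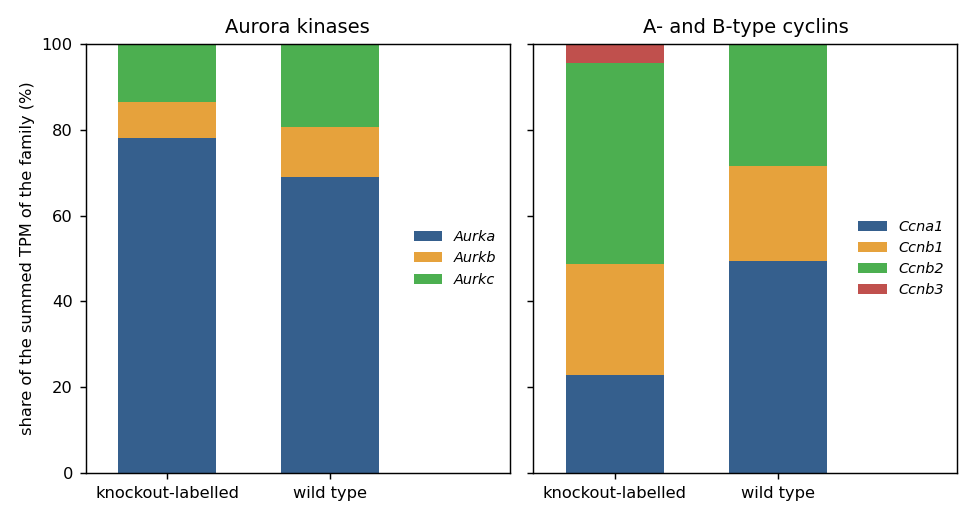
Share of the summed TPM (percent) held by each gene within the Aurora kinases (left) and within the A- and B-type cyclins (right), in the knockout-labelled library and in wild type, 1 library each. Ccna1 holds 22.7% of the cyclin sum in the knockout-labelled library and 49.3% in wild type, while Aurka holds the largest part of the Aurora sum in both, 78.2% and 69.0%.

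Cdc25c, the phosphatase that activates CDK1, was a low gene in both libraries. Cdc25c (ENSMUSG00000044201; chromosome 18, minus strand) stood at 4.34 TPM in the knockout-labelled library and 6.13 TPM in wild type, a log2 ratio of -0.42, or between -0.17 and -0.08 after rescaling. A protein-coding gene on the opposite strand, Gm3550, lies within it and stood at 6.90 TPM in the knockout-labelled library and 2.16 TPM in wild type. Since it is unknown whether strand was used, reads of the 2 genes may not have been kept apart.

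Plk1 was among the lowest ratios of the 10 genes. Plk1 (ENSMUSG00000030867; chromosome 7, 122159439 to 122169873, plus strand) had 15.7 TPM in the knockout-labelled library and 67.3 TPM in wild type, 4.28-fold lower with a log2 ratio of -2.03. Its ratio lay between -1.75 and -1.66 after rescaling, and 466 of 15000 protein-coding genes had a lower ratio as deposited. Per Cdk1 transcript there were 0.216 Plk1 transcripts in the knockout-labelled library and 0.939 in wild type. The processed pseudogene Plk-ps1 stood at 4.36 TPM in the knockout-labelled library and 4.54 TPM in wild type. As deposited, Plk1 and Ccna1 were the 2 genes of the 10 that were at least 4-fold lower, a size reached in that direction by 3.28% of protein-coding genes, and neither was 4-fold lower under any of the 3 rescalings.

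The Aurora kinase genes were lower as a family. Aurka (ENSMUSG00000027496; chromosome 2, 172356190 to 172370535, minus strand) had 73.7 TPM in the knockout-labelled library and 175.0 TPM in wild type, 2.38-fold lower with a log2 ratio of -1.24. Aurkb (ENSMUSG00000020897; chromosome 11, 69045647 to 69051664, plus strand) had 7.93 TPM in the knockout-labelled library and 29.2 TPM in wild type, 3.68-fold lower with a log2 ratio of -1.76. Aurkc (ENSMUSG00000070837; chromosome 7, 6995300 to 7003091, plus strand) had 12.7 TPM in the knockout-labelled library and 49.4 TPM in wild type, 3.90-fold lower with a log2 ratio of -1.88. After rescaling, Aurkb lay between -1.49 and -1.41, Aurkc between -1.61 and -1.52, and Aurka, which then missed 2-fold, between -0.95 and -0.84.

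Within the family, the spindle-pole kinase and the passenger-complex kinases had different ratios. There were 9.29 Aurka transcripts per Aurkb transcript in the knockout-labelled library and 5.997 in wild type. The passenger-complex kinase genes were closer in proportion, with 1.60 Aurkc transcripts per Aurkb transcript in the knockout-labelled library and 1.69 in wild type. Summed over the 3 genes, Aurora transcripts stood at 94.3 TPM in the knockout-labelled library and 254 TPM in wild type.

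**Figure D3:**
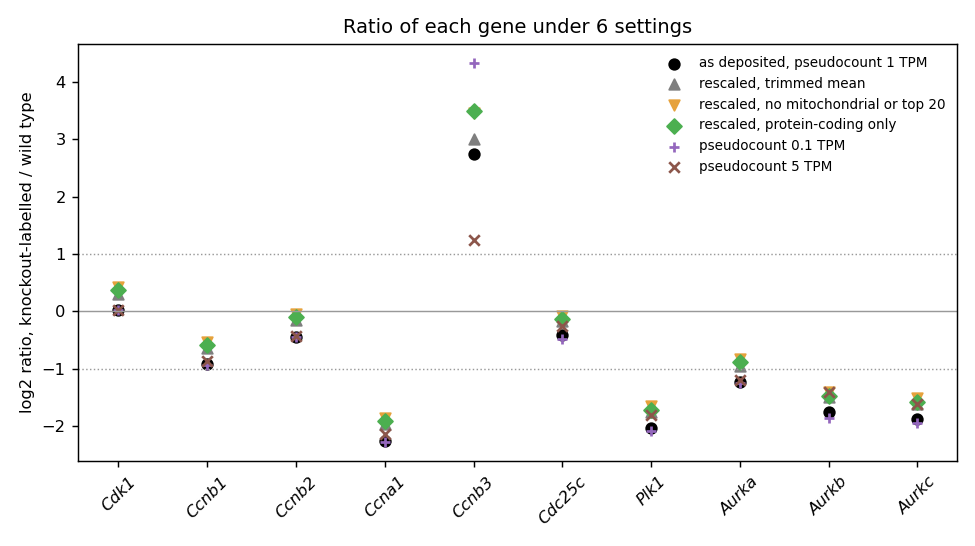
Log2 ratio of the knockout-labelled library over wild type for each gene under 6 settings: as deposited with a pseudocount of 1 TPM (black), 3 rescalings of the library totals, and pseudocounts of 0.1 and 5 TPM; dotted lines mark 2-fold. Ccna1, Plk1, Aurkc and Aurkb stay beyond 2-fold lower under all 6 settings, Aurka crosses the line under rescaling, and the Ccnb3 ratio runs between 1.25 and 4.33 with the pseudocount.

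The other genes of the pathway were followed as 82 genes in 6 lists. Of the 81 that reached 1 TPM in either library, 6 were at least 2-fold lower and 16 at least 2-fold higher in the knockout-labelled library, which are 7.41% and 19.8%, against 16.5% and 18.7% of protein-coding genes, so the share of higher genes lay near the background. Their median log2 ratio was -0.21 as deposited and between 0.11 and 0.23 after the 3 rescalings, so its sign depends on the scaling. Whether the 10 genes differ from these lists was not tested, since genes are not replicates.

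Partners of the Aurora kinases and of PLK1 had the lowest median of the 6 lists, at -0.64 as deposited and between -0.36 and -0.25 after rescaling. Of these 10 genes, 1 was at least 2-fold lower and 1 at least 2-fold higher. These are 10% in each direction, against 16.5% lower and 18.7% higher among protein-coding genes. As deposited, 8 had a negative ratio, but the share of all genes with a negative ratio was not counted. The passenger-complex subunits Birc5 (survivin), Cdca8 (borealin) and Incenp stood at 35.0, 69.4 and 15.4 TPM in the knockout-labelled library, against 73.1, 118.5 and 26.6 TPM in wild type. Their log2 ratios of -1.04, -0.76 and -0.75 were smaller in size than those of the kinase genes Aurkb and Aurkc that they bind. Birc5 came within 2-fold under each rescaling. Tpx2, which activates Aurora A on the spindle, had a log2 ratio of -0.74. Ajuba, another activator of Aurora A, stood at 2.44 TPM in the knockout-labelled library and 0.520 TPM in wild type, and Aunip had a log2 ratio of 0.39.

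Genes that set CDK1 activity lay in both directions, with a median of 0.05 over 16 genes, 1 at least 2-fold lower and 3 at least 2-fold higher. After rescaling the median was 0.32, 0.43 or 0.38 and the count of higher genes 4, 6 or 5. As deposited the 3 were the CDK-binding subunit gene Cks1b (23.4 TPM in the knockout-labelled library and 7.23 TPM in wild type) and the CDK inhibitor genes Cdkn1a (6.09 and 1.75 TPM) and Cdkn1b (3.24 and 0.699 TPM). Ccnh, the cyclin of the CDK-activating kinase, had a log2 ratio of 0.72. Wee2, an inhibitory kinase gene known from oocytes, was low in both libraries at 0.691 TPM in the knockout-labelled library and 2.73 TPM in wild type. Cdc25a, a second activating phosphatase gene, stood at 18.4 TPM in the knockout-labelled library and 29.3 TPM in wild type.

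Among the other kinases of division the median was -0.42, with 1 gene of 9 at least 2-fold lower and 2 at least 2-fold higher. After rescaling this median was -0.10, 0.01 or -0.04, and the count of higher genes was 4 under 2 of the 3 rescalings. The lower gene was Haspin, whose histone mark recruits the passenger complex to centromeres, at 78.9 TPM in the knockout-labelled library and 237 TPM in wild type. It remained at least 2-fold lower under the 3 rescalings, with log2 ratios between -1.28 and -1.17. The centrosome kinase gene Nek2, Pbk and the checkpoint kinase gene Ttk had log2 ratios of -0.87, -0.72 and -0.45. Melk (4.70 TPM in the knockout-labelled library and 0.967 TPM in wild type) and Plk2 (12.6 and 4.53 TPM), a Polo-like kinase of stress and early growth responses, were higher.

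The anaphase-promoting complex, the ubiquitin ligase that ends each division by destroying cyclin B and securin, had a list median of -0.18 over 22 genes, which was above 0 after each rescaling. Of these, 2 were at least 2-fold lower and 3 at least 2-fold higher. The lower genes were Espl1, the protease separase, at 29.7 TPM in the knockout-labelled library and 84.3 TPM in wild type, and Fbxo43, an inhibitor of the complex, at 38.2 and 86.4 TPM. Fbxo43 came within 2-fold under each rescaling. Cdc27, a subunit that binds the activators, and Fzr1, an activator, had log2 ratios of -0.89 and -0.87. The scaffold subunit genes Anapc4 (56.0 TPM in the knockout-labelled library and 21.9 TPM in wild type) and Anapc5 (62.3 and 24.5 TPM) were higher, as was Fbxo5, an inhibitor of the complex that was named after its values were seen (1.99 and 0.34 TPM).

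The other cyclins and their kinases had the highest median of the 6 lists, at 0.79, with 5 of 10 genes at least 2-fold higher and 0 lower by as much. This median was 0.40 with a pseudocount of 5 TPM and 0.09 over genes at 5 TPM or more, so its size depends on genes of low level. Cdk4, a kinase of the G1 phase, stood at 53.5 TPM in the knockout-labelled library and 12.3 TPM in wild type. Ccna2, the cyclin A of dividing somatic and spermatogonial cells, had a log2 ratio of 1.72, opposite in direction to Ccna1. The D-type cyclin genes Ccnd2 and Ccnd1 had log2 ratios of 1.82 and 1.27, while Ccnd3 and Cdk6 had ratios of -0.91 and -0.80. The fifth gene past 2-fold was Ccne2, named after its values were seen, at 98.2 TPM in the knockout-labelled library and 43.3 TPM in wild type. Spermatogonial markers were higher in the same library, with 9 of 11 at least 2-fold higher, and their part in these values was not tested.

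Regulators of division gene expression had a median of -0.08 over 14 genes that was above 0 after each rescaling, with 1 at least 2-fold lower and 2 at least 2-fold higher. Foxm1, a transcription factor for genes of the G2 phase and mitosis, stood at 35.4 TPM in the knockout-labelled library and 83.1 TPM in wild type, and came within 2-fold under each rescaling. Lin54, Eif4g3 and Lin52 had log2 ratios of -0.86, -0.86 and -0.65. LIN52 and LIN54 belong to the MuvB complex, which acts with MYB proteins and FOXM1 on cell cycle genes, and EIF4G3 is a translation factor needed for the meiotic division in male mice. Cpeb1, which binds mRNA tails and controls translation in germ cells, had the highest log2 ratio of the 82 genes, 3.26, at 32.6 TPM in the knockout-labelled library and 2.51 TPM in wild type. Nfyb, a subunit of the CCAAT-binding factor, stood at 20.8 TPM in the knockout-labelled library and 9.35 TPM in wild type.

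**Figure D4:**
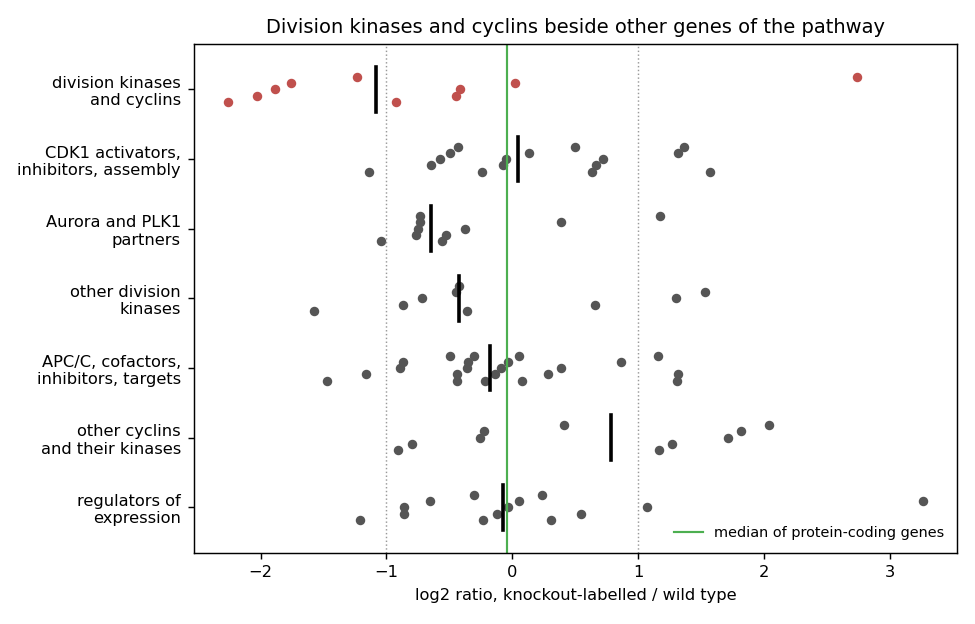
Log2 ratio of the knockout-labelled library over wild type for each gene that reached 1 TPM in either library, for the 10 division kinases and cyclins (red) and 6 lists of other pathway genes (grey); black bars are list medians, the green line is the protein-coding median, dotted lines mark 2-fold, and points are spread vertically for legibility. The 10 genes have a median of -1.08, while the list medians run between -0.64 and 0.79.

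Markers of neighbouring stages and of other testis cells differed between the same 2 libraries. The marker lists, here, above and below, were chosen with earlier results of these data known. Genes of a list lying on one side are therefore no independent evidence about a stage or cell type. The 12 late pachytene and diplotene genes, listed for the stages just before the divisions, summed to 3293 TPM in the knockout-labelled library and 7392 TPM in wild type. The ratio of these sums was 0.445, and that of the 10 division genes was 0.457, but single genes varied widely. The late pachytene list was not checked for RNA from spermatids, so its sum may not reflect the stage before the divisions alone. The log2 ratios of the division genes ran between -2.26 and 2.74, with a median of -1.08. Those of the 12 late pachytene and diplotene genes ran between -2.54 and -0.10, with a median of -1.26. Of these 12, 8 were at least 2-fold lower and 0 were higher by as much, and the most abundant, the germ-cell lactate dehydrogenase gene Ldhc, stood at 1585 TPM in the knockout-labelled library and 3398 TPM in wild type. The count of lower genes in this list was 6, 5 and 5 under the 3 rescalings. The 12 spermatid genes, expressed after the divisions, summed to 93.5 TPM in the knockout-labelled library and 2728 TPM in wild type, with all 12 at least 2-fold lower and the protamine gene Prm1 at 9.14 and 1004 TPM. After each rescaling, 11 spermatid genes were at least 2-fold lower. The 10 early prophase genes summed to 1704 TPM in the knockout-labelled library and 645 TPM in wild type, led by Sycp3 at 603 and 264 TPM. Sycp3 was used above as a gene of spermatocytes in general, so this sum does not measure an early stage alone. Spermatogonial markers, from mitotic germ cells that also use Cdk1, Ccnb1, Plk1 and the Aurora kinases, summed to 84.2 TPM in the knockout-labelled library and 14.2 TPM in wild type, led by Uchl1 at 25.2 and 5.73 TPM.

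Somatic markers were mostly higher beside the lower division genes. Leydig cell genes, 8 in all, summed to 1665 TPM in the knockout-labelled library and 63.8 TPM in wild type, each at least 2-fold higher and led by Insl3 at 1352 and 43.3 TPM. The 11 Sertoli cell genes summed to 544 TPM in the knockout-labelled library and 87.0 TPM in wild type, 9 of them at least 2-fold higher and led by Clu at 221 and 30.7 TPM. The 8 macrophage genes summed to 29.3 TPM in the knockout-labelled library and 2.37 TPM in wild type, where 2 of them, C1qa and Fcer1g, were listed at 0, and Lyz2 led them at 13.8 and 0.794 TPM. The 7 peritubular myoid genes summed to 17.0 TPM in the knockout-labelled library and 42.8 TPM in wild type, but in both directions, with 2 of the 6 that reached 1 TPM at least 2-fold lower, 2 at least 2-fold higher and a median log2 ratio of 0.06. Mylk, with the highest mean of the list, stood at 6.93 TPM in the knockout-labelled library and 19.1 TPM in wild type. The part of any of these cells in the values of the division genes was not tested, and with 1 library per genotype stage composition and genotype cannot be told apart.

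**Figure D5:**
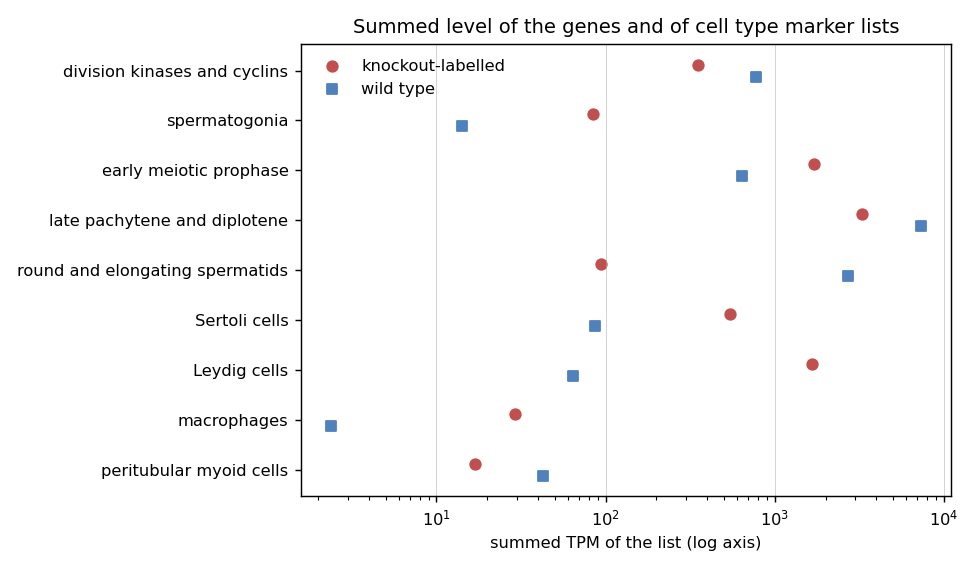
Summed TPM on a log axis of the 10 division genes and of 8 lists of cell type or stage markers in the knockout-labelled library (red circles) and in wild type (blue squares), 1 library each. The division genes (354 and 775 TPM) lie in the same direction as the late pachytene list (3293 and 7392 TPM) and the spermatid list (93.5 and 2728 TPM), and opposite to the early prophase list (1704 and 645 TPM). Each sum is weighted to the most abundant genes of its list.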

How the data were processed

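Strand-specific libraries were made from ribosome-depleted RNA of sorted spermatocytes, per the labels' protocols. The authors deposited gene-level TPM, and each library's values add up to 1000000. The deposited gene lengths and G+C percent values entered no ratio. The mm10 build and the tools kallisto 0.43.1, GSNAP, TopHat and bcl2fastq 2.19.1 are named in the submitters' processing notes; their order, any filters and the annotation used were not given in the sources used here. Start and end of 9 of the 10 genes equal those of GENCODE M21. Ratios used a pseudocount of 1 TPM, medians and counts took genes that reached 1 TPM in either library, and calls were made at 2-fold. No test or paired fit was possible with 1 library per genotype. All 10 genes are named; from each pathway list the text names up to 4 genes furthest on the side of its median and up to 2 on the opposite side. Smc1b, Smc1a and the most abundant gene of each marker list are also named. The genes, lists and settings were chosen with earlier results of these data known. Promoters are RefSeq's (GRCm38.p6), matched by symbol; the planned comparison of protein sequences was not made. Ratios and the trimmed-mean rescaling were tested on simulated data, and the other rescalings were not. Software was pandas 2.3.3 and NumPy 2.4.6 under Python 3.11.15, with Matplotlib 3.10.9 for figures.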

Additional observations from a re-analysis of the deposited data

How the results depend on the processing

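The median log2 ratio of the 10 division genes, -1.08 as reported, was -1.09 and -1.03 with pseudocounts of 0.1 and 5 TPM. It was -0.79 after rescaling to a trimmed mean of 0 (30% trimmed at each end), -0.68 with mitochondrial genes and the 20 of highest TPM left out, and -0.74 over protein-coding genes alone. The median of protein-coding genes, -0.05 as reported, moved up as well, to 0.23, 0.36 and 0.32 under the same 3 rescalings. Each of these medians covers the genes that reached 1 TPM after that rescaling. At 4-fold, 2 of the 10 division genes were lower in place of 5. For the 82 pathway genes the median, -0.21 as reported, was -0.22 and -0.16 with the 2 pseudocounts, 0.11, 0.23 and 0.17 under the 3 rescalings, -0.18 with no filter on low values and -0.25 at 5 TPM or more. Their count of lower genes, 6 as reported, was 3 under each rescaling and 0 at 4-fold. Their count of higher genes, 16 as reported, was 7 with a pseudocount of 5 TPM, 10 at 5 TPM or more and 2 at 4-fold, but 18, 22 and 21 under the 3 rescalings and 17 with a pseudocount of 0.1 TPM. No paired analysis was possible because each genotype has 1 library, and for the same reason no library could be left out. Depth is unknown, so the precision of low values such as Ccnb3 in wild type cannot be given.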
